A study of Mus musculus with 21 samples.

Results

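The cohesin and cohesin loading genes are 10 genes, taken by symbol from 49652 genes counted in mouse mammary tumors: Smc1a, Smc3 and Rad21 of the ring, Stag1 and Stag2, the loader genes Nipbl and Mau2, and Wapl, Pds5a and Pds5b. All 10 passed the filter on low counts, which kept 19315 genes. The group was chosen by gene symbol with the levels of these counts in RhoC and control tumors already known, so its values in that comparison are a description: no p is given for a member there, and nothing is read from the counts of members past a threshold. RNA from 21 tumors was counted, 9 from controls (N) and 12 from the RhoC cohort (R). All tumors arose in virgin females that carried FloxNeoNeuNT, an activated Neu cDNA at the Erbb2 locus that is silent until Cre removes a stop cassette, and MMTV-CreNLST, which drives Cre from the mouse mammary tumor virus promoter in part of the mammary epithelium. RhoC mice were R26(RhoC/+);FloxNeoNeuNT;MMTV-CreNLST, with a Cre-dependent mouse RhoC cDNA followed by IRES-eGFP at the Rosa26 locus. Of the controls, 7 were Gata4(loxP/+);FloxNeoNeuNT;MMTV-CreNLST, in which Cre also removes 1 copy of Gata4, and 2 (N-15 and N-17) lacked the Gata4 loxP allele. The RhoC tumors came from 8 mice if R-18, whose label names no mouse, is counted as its own: R-13, R-14, R-15 and R-16 share mouse P497, and R-6 and R-7 share mouse N9255. The labels give no age for a tumor.

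Cohesin is a protein ring that holds sister chromatids together from S phase to anaphase and, in interphase, extrudes loops of chromatin that halt at sites bound by CTCF. SMC1A and SMC3 form the arms of the ring, RAD21 closes it, and STAG1 or STAG2 binds RAD21. NIPBL with MAU2 loads the ring and drives its movement, while WAPL, helped by PDS5A or PDS5B, takes it off again. Mammary epithelium and its tumors use the same subunits as other dividing somatic tissue, and a separate set of subunits serves meiosis.

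Total counts per tumor ranged from 47309780 to 100741339 reads, and the member with the fewest reads, Smc1a in its lowest tumor, still had 1706. Values are CPM, the reads of a gene scaled to a common library size, after TMM normalization, which adjusts each library for differences in composition. In every tumor the 7 luminal epithelial markers, keratin and junction genes such as Krt8 and Epcam, were above 0, and their summed level was 1565 to 5929 CPM in control and 1229 to 3523 CPM in RhoC tumors. Rhoc itself was at 77.5 ± 53.6 CPM (SD, n = 9) in control and 88.7 ± 33.5 CPM (SD, n = 12) in RhoC tumors, and the difference did not pass the test (log2 fold change 0.19 ± 0.34 SE, edgeR adjusted p = 0.774). Of the RhoC tumors, 11 of 12 were above the control median, and the library labelled R-2 was at 22.7 CPM, below the lowest control. Without it the median log2 fold change of the members was -0.34, beside -0.33 with all tumors. Tumors are mixtures of cells, in which fewer cells of a type and less RNA per cell cannot be told apart.

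A pair of control tumors, N-3 and N-4, stood apart for these genes. The median member was 0.80 above its median over the 21 tumors in N-3 and 0.78 above it in N-4, on the log2 scale, against a range of -0.27 to 0.27 over the other 19 tumors. Each of this pair held the highest level of 4 members, and Mau2 was at its lowest level in N-3. Mitochondrial transcripts took 2.49% of counts in N-3 and 6.52% in N-4, the second of these the highest share in the series. N-6 (3.32%) and R-12 (2.71%) were also above N-3, and their median member deviations were -0.03 and 0.15. The part of these shares in the levels was not tested. The members' cohort differences and the correlations with their mean are therefore given with and without the pair, a choice made after the values were seen, with cohort means taken anew.

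Promoter sequences are shown for 4 members whose levels bear on how the group varied: Smc1a, Smc3 and Pds5a, which had the highest pairwise correlations over all 21 tumors, and Mau2, which ran the other way. They come from RefSeq on GRCm38.p6, where 7 of the 10 members had an entry, and run from 250 bases before to 50 after the transcript start, 5′ to 3′ on the strand of the gene. The Smc1a window is chrX:152016178-152016477 on the plus strand, that of Smc3 is chr19:53600146-53600445 on the plus strand, that of Pds5a is chr5:65698187-65698486 on the minus strand, and that of Mau2 is chr8:70042685-70042984 on the minus strand. Capitals mark matches, on either strand, to the 10 motifs searched.
Smc1a promoter: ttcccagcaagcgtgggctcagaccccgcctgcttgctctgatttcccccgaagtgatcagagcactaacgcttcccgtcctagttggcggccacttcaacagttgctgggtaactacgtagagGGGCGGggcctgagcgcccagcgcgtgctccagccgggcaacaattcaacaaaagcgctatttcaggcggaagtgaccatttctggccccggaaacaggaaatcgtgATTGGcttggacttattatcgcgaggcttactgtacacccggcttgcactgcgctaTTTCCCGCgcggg
Smc3 promoter: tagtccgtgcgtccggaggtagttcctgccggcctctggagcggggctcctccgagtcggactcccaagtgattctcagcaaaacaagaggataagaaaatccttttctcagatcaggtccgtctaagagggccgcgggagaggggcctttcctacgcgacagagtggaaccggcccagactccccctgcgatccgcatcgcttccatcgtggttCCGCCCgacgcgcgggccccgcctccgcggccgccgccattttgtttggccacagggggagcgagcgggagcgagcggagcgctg
Pds5a promoter: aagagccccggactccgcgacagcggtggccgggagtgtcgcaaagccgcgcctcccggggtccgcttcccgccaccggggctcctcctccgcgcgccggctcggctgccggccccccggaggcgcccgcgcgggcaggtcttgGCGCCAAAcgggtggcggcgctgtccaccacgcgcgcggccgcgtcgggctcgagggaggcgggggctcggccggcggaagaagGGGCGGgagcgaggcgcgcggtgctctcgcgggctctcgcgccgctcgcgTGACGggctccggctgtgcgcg
Mau2 promoter: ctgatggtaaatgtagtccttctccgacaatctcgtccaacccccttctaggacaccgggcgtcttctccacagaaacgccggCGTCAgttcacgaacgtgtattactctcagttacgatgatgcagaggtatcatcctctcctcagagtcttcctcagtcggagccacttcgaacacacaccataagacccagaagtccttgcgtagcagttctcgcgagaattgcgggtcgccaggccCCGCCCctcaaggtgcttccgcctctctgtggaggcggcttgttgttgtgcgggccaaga

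The 10 motifs were CCAAT (NF-Y), CCGGAAG (ETS factors), TTTCCCGC and TTTGGCGC (E2F), AAGATGGC (YY1), GGGCGG (SP1), TGACG (CREB), CACGTG (E-box) and the motifs of NRF1 and ZNF143, searched on both strands, and no match overlapped a match of another motif in these windows. A second RefSeq entry for Mau2 (chr8:70029464-70029763) was left out of the counts: it was 42.7% G and C, with 1 CpG, and held CACGTG and none of the others. GGGCGG was in all 7 windows counted, 1 per member (Smc1a, Smc3, Stag1, Mau2, Wapl, Pds5a and Pds5b) and in 35.7% of the 32851 RefSeq promoters. CCAAT was in 4 of the 7 (Smc1a, Stag1, Wapl and Pds5b) and in 37.4% of all promoters. TTTCCCGC was in the windows of Smc1a and Stag1, against 1.07% of all promoters, and TTTGGCGC in that of Pds5a, against 0.514%. TGACG was in 3 windows (Mau2, Wapl and Pds5a) and in 20.8% of all promoters. The other 5 motifs had no match in these 7 windows. These 7 windows were rich in G and C, from 56.0% in Mau2 to 80.3% in Pds5a, beside a median of 52.7% over all promoters. GGGCGG was the one motif of the 10 that the windows of Smc1a, Smc3 and Pds5a had in common, and the Mau2 window held it as well.

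The ring genes were lower on average in RhoC tumors, with wide overlap between cohorts. Smc1a (ENSMUSG00000041133.11, chromosome X from 152016428 to 152062694), one arm of the ring, was at 40.9 (lowest), 59.0 (median) and 105 CPM (highest) in control tumors and at 35.6, 46.7 and 58.6 CPM in RhoC tumors. All 12 RhoC tumors were below the control median, and 5 of 9 controls were above the highest RhoC tumor. Its log2 fold change was -0.42 ± 0.16 (SE). Smc3 (ENSMUSG00000024974.10, chromosome 19 from 53600398 to 53645833), the other arm, was at 42.6, 91.9 and 184 CPM in control and at 39.7, 68.6 and 98.8 CPM in RhoC tumors, a log2 fold change of -0.48 ± 0.22. The high controls were again N-3 and N-4. R-7 was far below the rest of its cohort (next R-1, 63.1 CPM), and N-6 was the lowest control (next N-17, 56.1 CPM). Rad21 (ENSMUSG00000022314.10, chromosome 15 from 51962240 to 51991747), the subunit that separase cuts at anaphase, was at 169, 201 and 373 CPM in control and at 146, 194 and 224 CPM in RhoC tumors. The medians of Rad21 lay close together, and its log2 fold change of -0.30 ± 0.15 came with high values in N-15 (373 CPM) and N-3 (355 CPM), the 2 controls above all RhoC tumors.

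**Figure D1:**
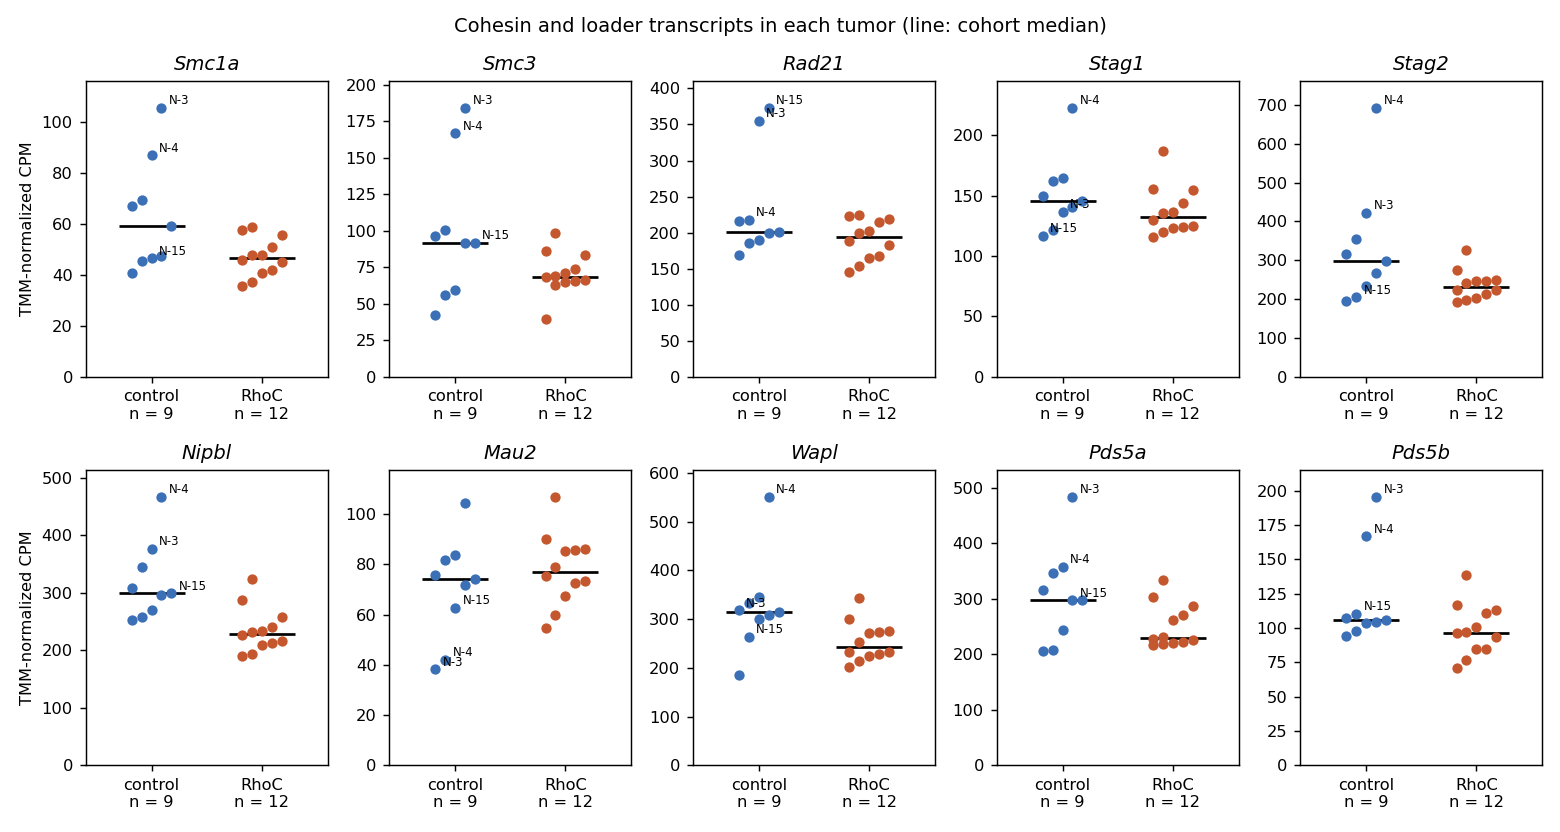
TMM-normalized CPM (y axis, from 0) of each member in 9 control and 12 RhoC tumors, 1 point per tumor, with the cohort median as a line and N-3, N-4 and N-15 named. The highest points are control tumors for all members but Mau2, and the cohorts overlap in every panel.

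Of the STAG subunits, which are alternatives in the complex, Stag2 (ENSMUSG00000025862.14, chromosome X from 42149317 to 42277185) was at 195, 297 and 693 CPM in control and at 192, 232 and 327 CPM in RhoC tumors. The control maximum was N-4, and the log2 fold change was -0.49 ± 0.19. The value was -0.28 without N-4, and -0.18 ± 0.14 without N-3 and N-4, behind Nipbl, Wapl, Rad21 and Smc1a. Stag1 (ENSMUSG00000037286.15, chromosome 9 from 100597798 to 100958545) was at 117, 145 and 223 CPM in control and at 116, 132 and 187 CPM in RhoC tumors, with a log2 fold change of -0.14 ± 0.12. Only N-4 exceeded the highest RhoC tumor, R-10. Other annotated genes overlap Smc1a, Stag1, Stag2, Pds5a and Pds5b, among them Gm15267, antisense to Smc1a, and the strand setting of the counting is not given in the sources used here, so reads of overlapping genes may not have been told apart.

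The loader partners differed in direction. Nipbl (ENSMUSG00000022141.7, chromosome 15 from 8290617 to 8444463), the large subunit of the loader, was at 252, 299 and 467 CPM in control and at 190.3, 229 and 324 CPM in RhoC tumors. Of the 12 RhoC tumors, 9 were below the lowest control, the clearest separation among the members, and all 9 controls were above the RhoC median. Its log2 fold change was -0.44 ± 0.13. Mau2 (ENSMUSG00000031858.16, chromosome 8 from 70016123 to 70042734), its partner, was at 38.3, 74.2 and 104 CPM in control and at 54.7, 77.1 and 107 CPM in RhoC tumors. The range of RhoC tumors lay almost within that of the controls, and the log2 fold change was 0.15 ± 0.16, the single positive value of the 10.

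The genes that take cohesin off chromatin lay between these. Wapl (ENSMUSG00000041408.18, chromosome 14 from 34673928 to 34747983), the release factor, was at 185, 315 and 551 CPM in control and at 201, 243 and 343 CPM in RhoC tumors, a log2 fold change of -0.35 ± 0.15. Of the RhoC tumors, 11 of 12 were below the control median. Pds5a (ENSMUSG00000029202.12, chromosome 5 from 65605721 to 65698168) was at 206, 298 and 484 CPM in control and at 218, 230.1 and 334 CPM in RhoC tumors, a log2 fold change of -0.28 ± 0.14. Pds5b (ENSMUSG00000034021.15, chromosome 5 from 150673739 to 150810690) was at 93.9, 106 and 196 CPM in control and at 71.1, 96.8 and 139 CPM in RhoC tumors, a log2 fold change of -0.29 ± 0.15. For Pds5b, 5 RhoC tumors were below the lowest control, and N-3 (196 CPM) and N-4 were the controls above the highest RhoC tumor.

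Together, 9 of the 10 members had a negative log2 fold change, with a median of -0.33, where 50.4% of all tested genes were negative and their median was -0.01. None of the 10 was called by edgeR (adjusted p under 0.05), which called 0.223% of all genes (43 of 19315). That background was itself unsteady: it was 346 genes without N-15, 14 without N-9, and 3 with the counts of each mouse summed or with mouse as a random effect. At an unadjusted p under 0.05 edgeR counted 5 of the 10, all lower in RhoC tumors, beside 20.5% of all genes in either direction and 9.93% lower. DESeq2 called 1 (Nipbl, lower) beside 6.24% of all genes in either direction and 2.59% lower, and counted 5 at an unadjusted p under 0.05 beside 23.1%. Since this contrast chose the members, nothing is read from these counts. Without N-3 and N-4 the median of the members was -0.16 (all genes 0.01), edgeR counted 1 of the 10 at an unadjusted p under 0.05 (15.6% of all genes), and Mau2 was at -0.03 in place of 0.15. That count was 2 without N-4 alone (17.5% of all genes) and 8 without N-6 (19.9%). Nipbl kept most of its difference without that pair of controls, at -0.31 ± 0.11, whereas Wapl was at -0.22 ± 0.13, Rad21 at -0.21 ± 0.15, Smc1a at -0.20 ± 0.13, Smc3 and Pds5a at -0.13 (± 0.18 and ± 0.13), Pds5b at -0.08 ± 0.12 and Stag1 at -0.07 ± 0.11. With any 1 of the 21 tumors removed the median ran from -0.39 to -0.25, and the same 9 members were negative each time. Single tumors moved some members by over 1.5 times. Without N-3 Smc3 was at -0.32, Pds5a and Pds5b at -0.17 and Mau2 at 0.07, and without N-4 Stag1 was at -0.06, Wapl at -0.23 and Mau2 at 0.07. Rad21 was at -0.18 without N-15, and Mau2 at 0.23 without N-9 and 0.10 without R-21. In the same comparison the log2 fold changes of the 5 basal epithelial markers had a median of 2.88 (5 positive, summed median 339 CPM in RhoC against 60.7 CPM in control tumors), and of 2.50 without N-3 and N-4 (4 positive). Those of the 7 luminal markers had a median of -0.30 (7 negative), and of -0.50 without the pair (6 negative). Squamous markers went both ways: of 3 tested, 1 was lower and 2 were higher (median 2.58). Krt10 was at -5.07 (edgeR adjusted p = 0.0536), and at -5.44 without the pair (edgeR adjusted p = 0.0395). Without the pair Krt1 was at -4.99, Krt6a at 2.21 and Ivl at 2.65. Of 3 B and plasma cell markers tested, Jchain was at -2.76, Mzb1 at -1.89 and the third higher, at 0.44. Without the pair Jchain was at -2.38, Mzb1 at -1.92 and Cd79b at 0.60. Their part in the member levels was not tested.

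**Figure D2:**
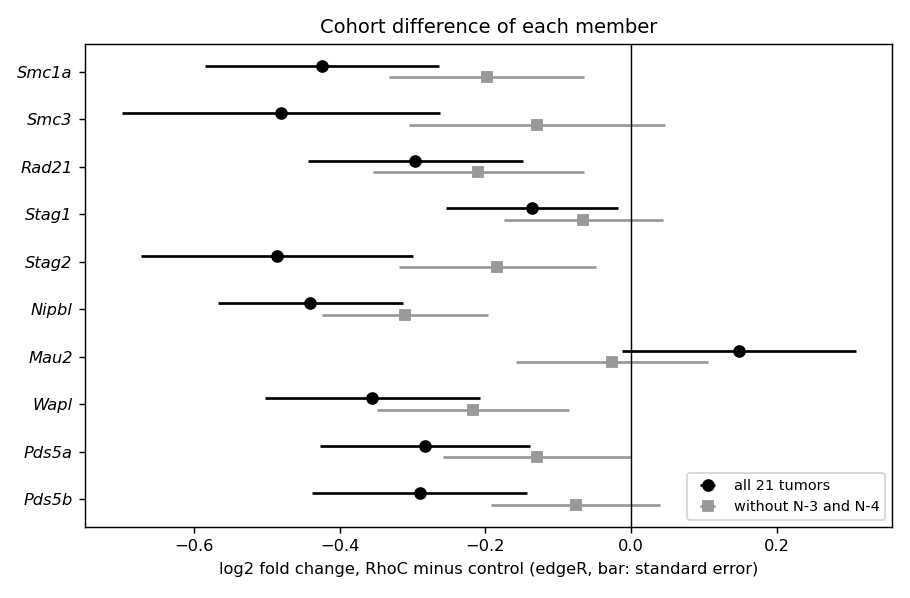
Log2 fold change of each member, RhoC minus control, with its standard error (edgeR), from all 21 tumors (black) and without N-3 and N-4 (grey). Nipbl moves from -0.44 to -0.31, and Smc3 from -0.48 to -0.13.

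The spread of the members also differed by cohort. The SD of log2 CPM was larger in control than in RhoC tumors for 10 of 10 members, with medians of 0.41 and 0.22, where 60.2% of the 11680 genes with a mean log2 CPM over 2 had the larger SD in controls. Without N-3 and N-4 it was larger in controls for 6 of 10 members, beside 49.9% of genes. The 2 tumors of mouse N9255 were far apart, since R-6 held the highest Smc3 level of the RhoC cohort (98.8 CPM) and R-7 the lowest (39.7 CPM).

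**Figure D3:**
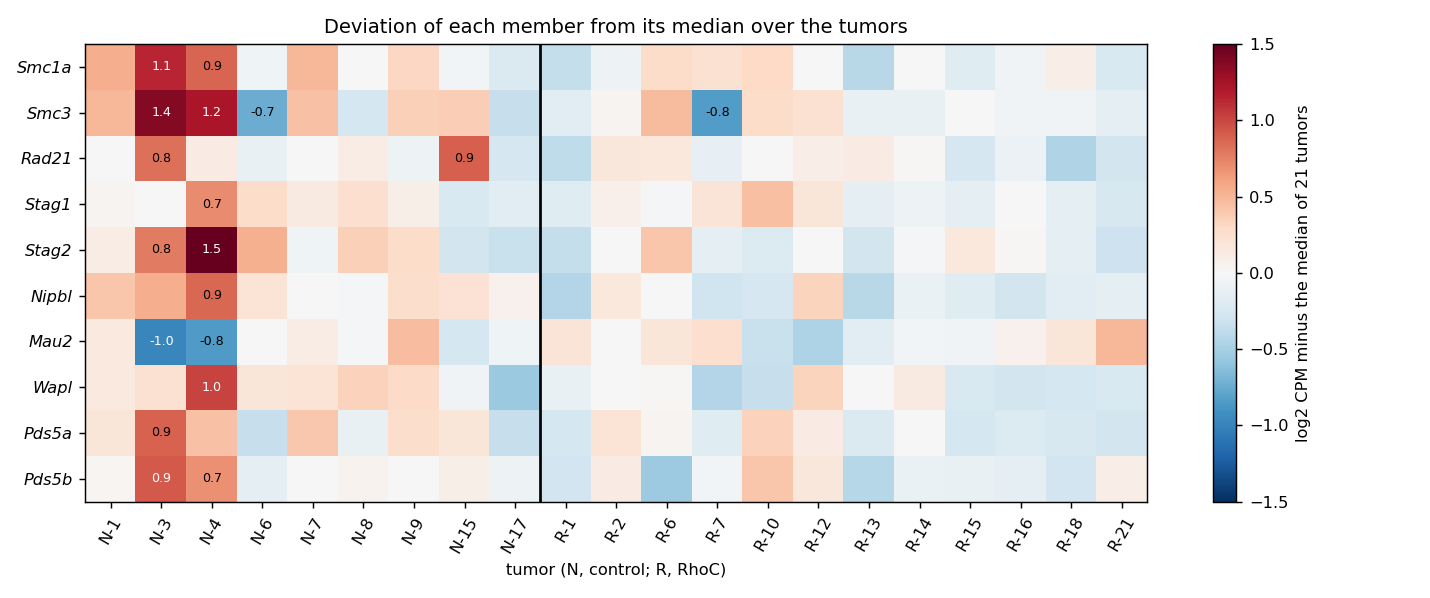
Log2 CPM of each member (rows) in each tumor (columns) minus its median over the 21 tumors, as colour, with values of 0.6 or more in size printed. N-3 and N-4 are high for most members and low for Mau2, and single values stand out for Rad21 in N-15 and for Smc3 in N-6 and R-7.

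Levels per gene length, as the deposited FPKM, put Rad21 highest and Smc1a lowest. The medians over the 21 tumors were 47.1 FPKM for Rad21, 41.8 for Wapl, 34.8 for Stag2, 29.3 for Pds5a, 27.1 for Nipbl, 17.8 for Stag1, 14.4 for Smc3, 13.8 for Mau2, 11.3 for Pds5b and 10.1 for Smc1a. Neighbours in this order were not cleanly separated. Rad21 was above Wapl in 14 of 21 tumors, Smc3 above Mau2 in 11 and Pds5b above Smc1a in 13, while Nipbl was above Stag1 in 20. Within a tumor, Stag2 exceeded Stag1 in all 21, by a median of 1.96 times (range 1.25 in R-10 to 3.42 in N-4). Pds5a exceeded Pds5b in all 21, by a median of 2.51 times on the FPKM scale. That ratio was 1.26, with 20 of 21 tumors above 1, when gene lengths from GENCODE M21 were used, so the length assigned to a gene sets its size. Nipbl exceeded Mau2 by a median of 1.87 times, with 6.37 times in N-4, and by 3.17 times with GENCODE lengths. These medians without N-3 and N-4 were 1.92 for Stag2 to Stag1, 2.62 for Pds5a to Pds5b and 1.81 for Nipbl to Mau2. Smc1a was below Smc3 in 19 of 21 tumors (median ratio 0.667), although the proteins pair within the ring, and the ratio reached 1.45 in R-7. The ratio of Rad21 to Smc3 had a median of 2.92 and also peaked in R-7, at 5.28. By cohort, the median of Nipbl to Mau2 was 2.24 in control and 1.69 in RhoC tumors, that of Rad21 to Smc3 2.39 and 2.93, that of Stag2 to Stag1 2.14 and 1.88, and that of Wapl to Nipbl, release factor to loader, 1.49 and 1.49. These cohort medians share the choice of the members and were not tested.

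The members did not vary as one unit. After the cohort means were removed, the 45 pairs of members had a median Pearson r of 0.43 over the 21 tumors, from -0.69 (Mau2 and Pds5b) to 0.84 (Smc3 and Pds5a). These points share libraries, and tumors of 1 mouse are among them. Smc1a, Smc3 and Pds5a had r from 0.73 to 0.84 with one another, and Stag2 and Wapl had 0.73 (0.53 without N-3 and N-4). All 9 pairs with Mau2 were negative. Without N-3 and N-4 the median over 45 pairs was 0.25, Smc3 and Pds5a had an r of 0.75, Smc1a and Smc3 0.47, and the 9 pairs with Mau2 ranged from -0.51 to 0.16. Within RhoC tumors Smc1a and Smc3 had an r of 0.17, and within controls 0.91. Apart from Mau2 at -0.71, the r of a member with the mean of the other 9 ran from 0.35 for Rad21 to 0.82 for Pds5a. With N-3 and N-4 left out Mau2 was at -0.26, Pds5b at 0.22, Rad21 at 0.24 and Pds5a at 0.81.

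**Figure D4:**
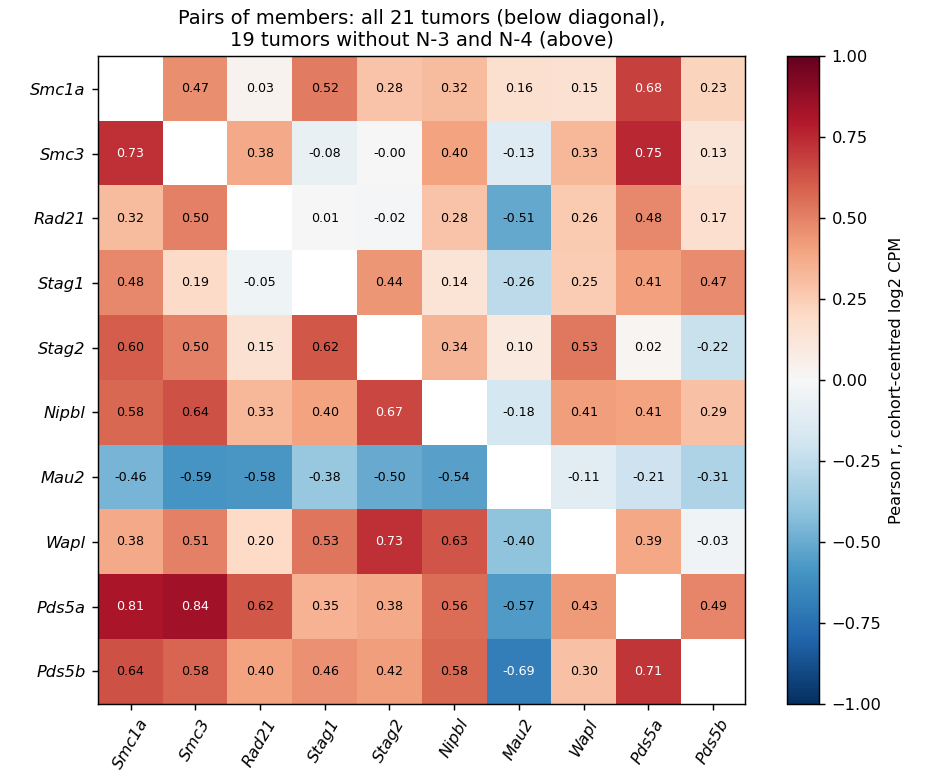
Pearson r of cohort-centred log2 CPM for each pair of members, over 21 tumors below the diagonal and over 19 tumors without N-3 and N-4 above it. Smc3 and Pds5a stay close (0.84 and 0.75), and the negative values of Mau2 shrink for most pairs without N-3 and N-4.

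Some single members moved with the genes around them. For Rad21 in N-15 (0.90 above its median on the log2 scale), the other 457 genes of chromosome 15 had a median deviation of 0.80, and 87.1% of them were above 0. Nipbl, on the same chromosome, was 0.21 above its median in N-15, so the members on it did not move equally. For Smc3 in N-6 (-0.74), the other 406 genes of chromosome 19 had a median deviation of -0.66. In R-6, where Smc3 was 0.47 above its median, those genes were at 0.60. In R-7, where Smc3 was at -0.84, genes before the 50 Mb position of chromosome 19 had a median deviation of 0.00 (368 genes) and those from that position on, where Smc3 lies, -0.72 (37 of 38 below 0). For Mau2 in N-9 (0.47), the 614 other genes of chromosome 8 were at 0.42. Over 20 chromosomes and 21 tumors such medians were within 0.2 of 0 in 89.8% of 420 cases and beyond 0.5 in 4, of which 3 were those of N-15, N-6 and R-6 just given. In N-3 and N-4 Smc3 was at 1.37 and 1.23 while the rest of chromosome 19 was at 0.14 and -0.29 and the 27 genes within 5 Mb of it at 0.48 and 0.43. In this pair of tumors the other members varied in this respect. Smc1a in N-3 was at 1.15 with 25 genes within 5 Mb at 0.11, and Wapl in N-4 at 1.02 with 46 genes at 0.16. Mau2 was at -0.98 in N-3 and -0.85 in N-4, with 44 genes within 1 Mb at -0.51 and -0.77 and 91 genes within 5 Mb at -0.38 and -0.46. Nipbl in N-3 was at 0.55 with 39 genes within 5 Mb at 0.48. Stag2 in N-4 was at 1.49 with 8 genes at 1.01, and Pds5b in N-3 at 0.91 with 29 genes at 0.69. Within 10 Mb the values were lower for Stag2 in N-4 (39 genes at 0.37) and Pds5b in N-3 (70 genes at 0.28). Genes within 10 Mb of Nipbl and Smc1a in N-3 were at 0.47 and 0.19, and those of Wapl in N-4 at 0.14. In N-3 and N-4 those of Mau2 were at -0.32 and -0.19, and those of Smc3 at 0.26 and -0.15. Pds5b in N-4 was at 0.69, with genes within 10 Mb at -0.12. These regions were examined after the values were seen, and DNA was not analysed here.

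**Figure D5:**
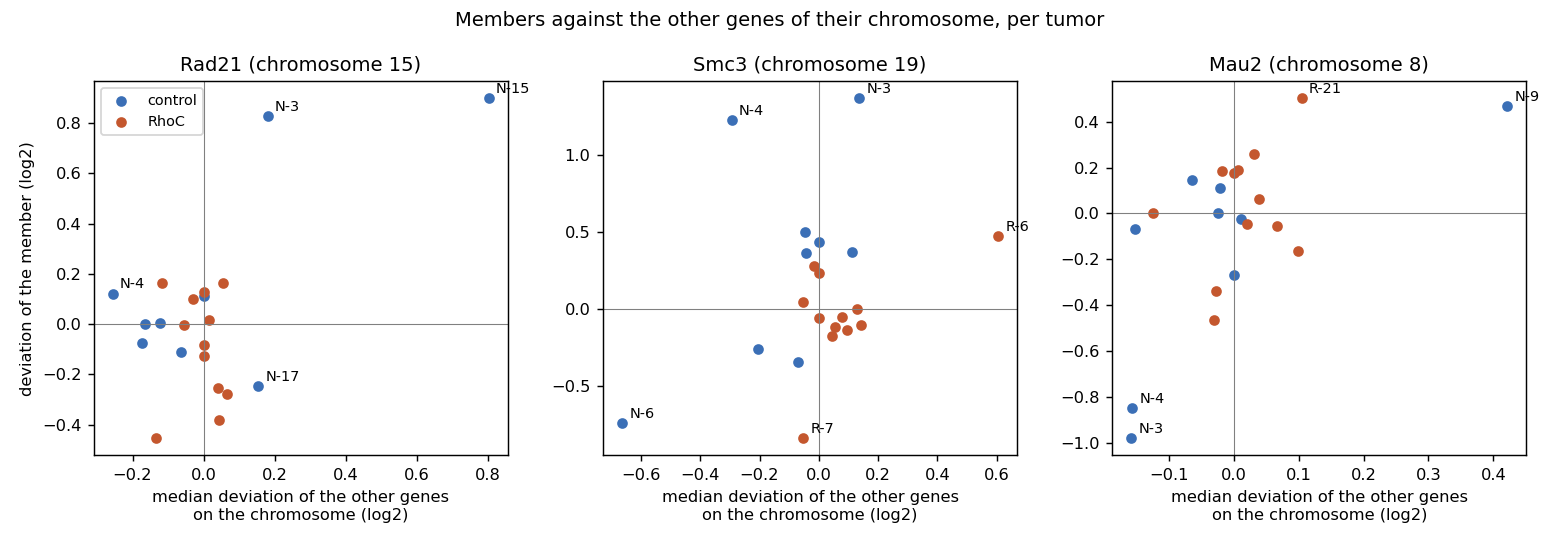
Deviation of Rad21, Smc3 and Mau2 from their median over 21 tumors (y axis, log2) against the median deviation of the other genes on the same chromosome (x axis, log2), 1 point per tumor, coloured by cohort. Rad21 in N-15 and Smc3 in N-6 and R-6 lie where their chromosome also deviates. For Smc3, N-3 and N-4 lie far above 0 on the y axis (1.37 and 1.23), with the chromosome at 0.14 and -0.29.

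Among 11670 other genes with a mean log2 CPM over 2, those whose pattern was most like the mean of the members after removal of cohort means were Zranb2 (r = 0.94 over 21 tumors), Npat (0.89), Zfp959 (0.89), Cenpc1 (0.88) and Brwd3 (0.88). ZRANB2 is a splicing factor, NPAT drives histone gene transcription and CENPC1 is a centromere protein. The least like were Ndufs7 (r = -0.89), Mief2 (-0.89), Tysnd1 (-0.88), Slc25a11 (-0.88) and Slc39a3 (-0.87), of which NDUFS7 is a subunit of respiratory complex I and SLC25A11 a mitochondrial carrier. The median r over all these genes was -0.01, and 46 genes had an r over 0.8. Without N-3 and N-4 the r of the first 5 was 0.74 or more. The single closest gene was another SMC gene for Smc3 (Smc5, r = 0.92) and the chromatin remodeler Hells for Pds5a (0.91). For the others it was Zranb2 for Smc1a (0.83), Dcaf13 for Rad21 (0.90), Dcun1d1 for Stag1 (0.81), Chm for Stag2 (0.92), Setd2 for Nipbl (0.85), BC017158 for Mau2 (0.93), Dlg1 for Wapl (0.88) and Ppp4r3a for Pds5b (0.87). With N-3 and N-4 left out these r ran from 0.67 for Smc1a to 0.90 for Pds5a. Smc5 lies on the same chromosome as Smc3, Dcaf13 on the same as Rad21, and Chm on the same as Stag2.

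The mean of the members had an r of 0.65 with the mitochondrial share of counts after removal of cohort means, and 0.29 without N-3 and N-4. With the total count it was -0.25 (-0.29 without the pair), and with the level of genes with long exon sequence relative to those with short it was 0.45 (0.26). Of the marker lists, the luminal list had the value farthest from 0, at -0.46, which was -0.04 without the pair, and the 12 proliferation markers (Mki67, Top2a and others) had 0.09 (0.22). Proliferation markers summed to 317 to 1573 CPM in control and 549 to 1981 CPM in RhoC tumors. The lists of basal, squamous, fibroblast, T cell, B and plasma cell, macrophage, endothelial, adipocyte and skeletal muscle markers had r between -0.16 and 0.14 over all tumors. Without the pair they ranged from -0.48 for endothelial to 0.51 for basal markers, with squamous markers at 0.50. Of the muscle markers Myh4 was at 0 in 9 tumors. The part of these measures in the levels of the members was not tested.

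Among genes that work with cohesin, 57 were listed in 6 groups, and 53 of them passed the filter. None was called by edgeR, beside 0.223% of all genes. Since some tumors share a mouse, p-values over tumors are in part a measure of spread within mice. At an unadjusted p under 0.05 edgeR counted 8 of 53, of which 7 were lower in RhoC tumors, beside 20.5% of all genes, and DESeq2 called 3 (Tipin, Nsmce2 and Zfp143), beside 6.24%. With counts summed over each mouse the edgeR adjusted p of these 3 was 0.265, 0.201 and 0.195. With mouse as a random effect in limma the adjusted p was 0.238, 0.197 and 0.176. Without mouse P497 the edgeR adjusted p was 0.322, 0.252 and 0.252. With N-3 and N-4 left out edgeR called 0 of the 53, beside 0.177% of all genes, and counted 5 at an unadjusted p under 0.05, beside 15.6%. The 16 genes of cohesion establishment, protection and cleavage had a median log2 fold change of -0.21, with 11 negative. Tipin, of the fork protection complex, was at 33.4 ± 13.3 CPM in control and 19.9 ± 5.31 CPM in RhoC tumors (SD), with a log2 fold change of -0.75 ± 0.20 and an edgeR adjusted p of 0.0764 (-0.48 ± 0.17 without N-3 and N-4). Esco1, an acetyltransferase of SMC3, was at -0.31 ± 0.14 (edgeR adjusted p = 0.224), and at -0.20 ± 0.11 without the pair.

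The other SMC complexes had negative values as well. All 8 condensin genes were negative (median -0.26), with Smc4 at -0.48 ± 0.20 (edgeR adjusted p = 0.186) and Ncapg2 at -0.37 ± 0.22 (0.349), and without N-3 and N-4 7 of 8 were negative (median -0.16), with Smc4 at -0.29 ± 0.19 and Ncapg2 at -0.16 ± 0.19. All 9 genes of the SMC5/6 complex, a DNA repair complex, were negative (median -0.28), and 6 of 9 without N-3 and N-4 (median -0.08). In that group the SUMO ligase subunit Nsmce2 was at 19.4 ± 4.44 CPM in control and 13.4 ± 1.34 CPM in RhoC tumors, a log2 fold change of -0.53 ± 0.13 (edgeR adjusted p = 0.0602), below the control median in 12 of 12 RhoC tumors. Nsmce2 was at -0.45 ± 0.13 without the pair. Smc6 was at -0.54 ± 0.19 (edgeR adjusted p = 0.138), and at -0.18 ± 0.13 without the pair. Eid3, of the same list, had the largest value, -0.66 ± 0.36 (edgeR adjusted p = 0.307), and was at -0.84 ± 0.39 without the pair. The mean of the SMC5/6 genes had an r of 0.82 with the mean of the cohesin members, against 0.30 for condensin, over the same 21 tumors, and the values were 0.68 and 0.31 without N-3 and N-4.

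Of the 11 tested architectural factors, 5 were negative (median 0.04), and 6 without N-3 and N-4 (median -0.03). Ctcf, whose protein halts cohesin on chromatin, was at -0.19 ± 0.10 (edgeR adjusted p = 0.269), and at -0.17 ± 0.10 without the pair. Zfp143, a promoter-binding factor, was at 31.0 ± 7.24 CPM in control and 20.3 ± 3.46 CPM in RhoC tumors, a log2 fold change of -0.61 ± 0.14 (edgeR adjusted p = 0.0536) with 12 of 12 RhoC tumors below the control median, and at -0.55 ± 0.14 without N-3 and N-4. Znhit1 was at 0.36 ± 0.15 (edgeR adjusted p = 0.179), and at 0.31 ± 0.15 without the pair. Of 8 DDK and MCM genes, which license and fire replication origins, 6 were negative, with Mcm7 at -0.29 ± 0.22 (edgeR adjusted p = 0.466) and Dbf4 at -0.39 ± 0.30 (0.468). With N-3 and N-4 left out 7 of the 8 were negative, the median was -0.11 where it had been -0.25, and Mcm7 was at -0.21 ± 0.21 and Dbf4 at -0.13 ± 0.27. The meiotic cohesin genes were near the limit of detection: Stag3 had a mean of 0.221 CPM in control and 0.233 CPM in RhoC tumors (0.06 ± 0.35, edgeR adjusted p = 0.934, and 0.04 ± 0.34 without the pair), and Smc1b, Rad21l and Rec8 did not pass the filter. Ctcfl did not pass it either, with at most 4 reads in a tumor.

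The controls with and without the Gata4 loxP allele gave a comparison that the choice of members did not use, although the same controls serve in both. It sets 7 tumors against 2, in a fit that takes the spread from all 21 tumors, and in simulated data it recovered 6 of 100 genes changed by 1 on the log2 scale and 70 of 100 changed by 2. None of the 10 members was called by edgeR, beside 0.212% of all genes (41 of 19315), and DESeq2 called none of the 10, beside 1.64%. At an unadjusted p under 0.05 both tools counted 4 of 10, all higher with the allele, where edgeR counted 9.67% of all genes (3.6% higher) and DESeq2 11.9% (5.74% higher). They were Stag2 (log2 fold change 0.89 ± 0.32, edgeR adjusted p = 0.325), Wapl (0.65 ± 0.25, 0.370), Smc1a (0.65 ± 0.28, 0.447) and Stag1 (0.43 ± 0.20, 0.516). Stag2 was at 234, 316 and 693 CPM (lowest, median and highest) with the allele and at 204 and 195 CPM without it, so these groups did not overlap. Rad21 had the opposite sign (-0.28 ± 0.26, edgeR adjusted p = 0.798), since N-15 holds its highest level. These 4 rest on the RhoC tumors in the fit: with the 9 controls alone edgeR counted 0 of 10 (smallest adjusted p = 0.723) beside 6.99% of all genes. It counted 1 without N-17, beside 9.09%, and 2 without N-15, beside 6.56%. Without N-3 and N-4, both of which carry the allele, edgeR called 0 of 10, beside 13 of 19750 genes, and counted 2 at an unadjusted p under 0.05, beside 9.16%.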

How the data were processed

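RNA was isolated from 21 mammary tumors, and libraries were made with a stranded total RNA kit after removal of ribosomal RNA. Per the submitters' processing notes, the tools were FastQC 0.11.5, Trim Galore 0.5.0, STAR 2.6.0c and HTSeq 0.6.1p2, with the GRCm38.p6 genome. The deposited counts are whole reads per gene for each tumor, not normalized. The deposited FPKM values, which the authors scaled per gene length and library, were used for levels between genes. The fold changes and p-values of the authors' own comparisons, held in the same tables, were not used. Cohorts were compared with edgeR 4.0.16 (quasi-likelihood, TMM, filterByExpr, Benjamini-Hochberg adjusted p under 0.05) in R 4.3.3, with 1 fit over the tumors and no covariate. Log2 CPM used a prior count of 2. TMM factors ranged from 0.836 to 1.20. DESeq2 1.42.0 and limma 3.58.1 with a within-mouse correlation were alternatives. Correlations are Pearson r of log2 CPM after subtraction of the cohort mean, with no p.

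In simulated data for the cohort comparison edgeR recovered 73 of 100 genes changed by 1 on the log2 scale and 95 of 100 changed by 2. The members and gene lists were chosen with earlier results of these data known. Named genes were all members, Rhoc, in each list of neighbouring genes any called gene or else the 2 with the smallest p, the 5 genes most and least like the member mean, and the closest gene to each member. Krt1, Krt6a, Krt10, Ivl, Cd79b, Jchain, Mzb1, Eid3, Ctcf, Smc1b, Rad21l, Rec8 and Ctcfl were named after their values were seen. Tumor numbers are names only: tumors of equal number in the cohorts correlated at -0.24 to 0.02. No 2 libraries were identical.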

Additional observations from a re-analysis of the deposited data

Results flagged for a closer look

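In 4 of 49 groups of tumors tested, 1 tumor lay far from the others relative to the range of its group, and chance flags about 1 in 20 groups. Among the 7 controls with the Gata4 loxP allele, Rad21 was highest in N-3, at 8.47 on the log2 CPM scale, with a gap to the next tumor of 0.753 of the range. In the same group Stag1 was highest in N-4, at 7.80 (gap 0.616), and Wapl was highest in N-4, at 9.11 (gap 0.770). Among all 9 controls Esco1 was highest in N-4, at 7.03 (gap 0.612). All 4 values belong to N-3 or N-4, and their cause was not tested.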

How the results depend on the processing

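The median log2 fold change of the members stayed negative under all 32 alternatives, with a range of -0.39 to -0.25 when 1 tumor was left out. The count of members called was 0 with edgeR and 1 with DESeq2, beside 0.223% and 6.24% of all genes. For the neighbouring genes these counts were 0 and 3. Against the controls with Gata4 loxP/+ alone 2 neighbouring genes were called (Tipin and Zfp143), beside 2.22%, and from 0 to 2 when 1 tumor was left out. Zfp143 was called without N-15, N-17, R-10 or R-12, beside 1.77%, 0.283%, 0.490% and 0.563% of all genes, and Tipin without R-10. Neither was called with counts summed over each mouse, with mouse as a random effect or without mouse P497. The cause of these shifts was not tested. All genes called by edgeR ran from 14 (without N-9) to 346 (without N-15) when 1 tumor was left out, and were 438 against the Gata4 loxP/+ controls alone and 3 without mouse P497. With GENCODE M21 lengths the ratio of Stag2 to Stag1 was 2.54, that of Pds5a to Pds5b 1.26 and that of Nipbl to Mau2 3.17. Of the 5 genes most like the member mean, 2 were shared without centring by cohort, 2 with library size in place of TMM, 3 without N-3 and N-4, and from 2 to 5 when 1 tumor was left out. A replicate block on the 4 numbers that both cohorts share (8 tumors) gave a median of -0.29 and 0 calls, and the numbers do not pair the tumors. Leaving out N-3 and N-4 was chosen after the values were seen. Bulk tissue, mice that gave several tumors and 2 controls without the Gata4 allele limit all of these values.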
